A study of Mus musculus with 8 samples.

Results

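The 7 genes described here encode the enzymes that write and erase DNA methylation in mouse cells, with the main cofactor of its maintenance: Dnmt1, Uhrf1, Dnmt3a, Dnmt3b, Tet1, Tet2 and Tet3. They were chosen by symbol for their known function, not by their values, although earlier results of these data were known. They are 7 of the 41214 gene identifiers in the deposited count tables. All 7 passed the filter on low counts, so each was tested in every comparison.

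In mammals a methyl group is placed on cytosine, mostly where a guanine follows (CpG). DNMT1 copies the mark onto the new strand after replication, and UHRF1 brings it to hemimethylated DNA, so both are most needed in dividing cells. DNMT3A and DNMT3B set new marks, and the TET dioxygenases oxidise methylcytosine as the first step of its removal. In blood, Dnmt3a and Tet2 are known for restraining stem cell self-renewal, and lesions of both genes are frequent in human blood cancers. DNMT3A has also been reported to be recruited to the Cdkn1a promoter by Myc through Miz1, the protein that was altered in the study.

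The samples were 8 mRNA libraries, each of a spleen tumour from its own C57Bl6 mouse, with 2 in each of 4 groups. The groups were CD4+ T cell tumours with Miz1 deltaPOZ (T deltaPOZ), CD4+ T cell tumours with Miz1 wt (T wt), B cell tumours with Miz1 deltaPOZ (B deltaPOZ) and B cell tumours with Miz1 wt (B wt). Miz1 is a zinc finger transcription factor encoded by Zbtb17, and its POZ domain, which deltaPOZ lacks, lets it form multimers. The deposited names of all 4 T libraries carry the tag Notch and those of T deltaPOZ also the tag ENU, which no B library and no T wt library carries. No Cre line, transgene or age is given in the sources used here. The B libraries carry one sequencing run tag and the T libraries another, so lineage, the Notch tag and the run cannot be told apart, and in T neither can genotype and the ENU tag.

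Libraries held 44330101 to 58271208 gene counts, at which a count of 0 allows up to 0.0515 to 0.0677 CPM (counts scaled to library size; 3 counts, counting error only). Summed markers of the B lineage ran from 19.6 to 102 CPM in T tumours and from 1873 to 3191 CPM in B tumours, and those of the T lineage from 2375 to 4260 CPM in T tumours and from 19.1 to 54.8 CPM in B tumours. The T tumours also held Cd8a, at 356 to 1246 CPM, above Cd4 in each of them (98.8 to 432 CPM), although the labels say CD4+. Summed myeloid markers reached 1259 CPM in B wt 2, against 98.9 to 248 CPM in the other 3 B libraries, and 639 CPM in T wt 1, against 112 to 460 CPM in the rest of the T tumours. Counts were present for 25387 genes in T deltaPOZ 2, against 18339 to 21078 in the other 7 libraries. These 3 libraries, B wt 2, T wt 1 and T deltaPOZ 2, were also left out together, which leaves 1 library in 3 of the groups, assumed to vary like those of the other group. That fit rests on fewer libraries and in general has lower power, though not necessarily for each gene. Whether a call lost in it depended on these 3 libraries or on the lower power cannot be told apart. Sex followed genotype in the B tumours, with the Y-linked Ddx3y at 133 and 174 CPM in B deltaPOZ and at most 0.289 CPM in B wt, so the 2 cannot be told apart there. Zbtb17 stood at 37.0 to 40.1 CPM in T deltaPOZ, 42.3 to 49.6 CPM in T wt, 49.4 to 59.1 CPM in B deltaPOZ and 48.0 to 66.2 CPM in B wt, and a count over the whole gene says little about the deletion. In such bulk samples fewer cells of a type and less RNA per cell cannot be told apart.

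Per length, the maintenance pair stood far above the other 5 genes in both lineages. In RPKM, which scales counts to library size and exon length, Dnmt1 averaged 91.3 ± 13.7 in T tumours and 98.5 ± 7.79 in B tumours, and Uhrf1 averaged 93.2 ± 17.6 in T tumours and 115 ± 21.8 in B tumours (SD, n = 4 each). Both lay above 96.5 to 98.1% of the 16322 tested genes with a known length in every library. Dnmt3a came next in T tumours, at 7.34 ± 0.977 RPKM, and averaged 4.83 ± 1.17 RPKM in B tumours, below the mean of Dnmt3b there. Tet3 averaged 4.30 ± 1.13 RPKM in T tumours and 4.08 ± 0.868 RPKM in B tumours. Dnmt3b averaged 3.24 ± 1.07 RPKM in T tumours and 6.31 ± 3.18 RPKM in B tumours, and Tet2 0.949 ± 0.682 RPKM in T tumours and 2.42 ± 0.467 RPKM in B tumours. Tet1 was lowest in B tumours, at 0.0746 ± 0.0777 RPKM, and stood at 1.32 ± 0.310 RPKM in T tumours. The ranges over single libraries of Dnmt1 and Uhrf1 overlapped in both lineages. So did those of Dnmt3b and Tet3 and of Tet1 and Tet2 in T tumours, and those of Dnmt3b with Dnmt3a, Tet3 and Tet2 in B tumours. Within libraries, Dnmt3a lay above Tet3 in every T and B library. Dnmt3b lay above Tet2 in every B library per exon length, but with the longest transcript's length Tet2 was higher in B deltaPOZ 2 (3.87 against 2.83 RPKM). The other pairs named changed order between libraries. With the length of the longest transcript in place of all exons, Dnmt3a came to 12.6 RPKM in T tumours and 8.30 RPKM in B tumours and Tet2 to 1.74 RPKM in T tumours and 4.44 RPKM in B tumours, which moved no gene of the low set near the maintenance pair.

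**Figure D1:**
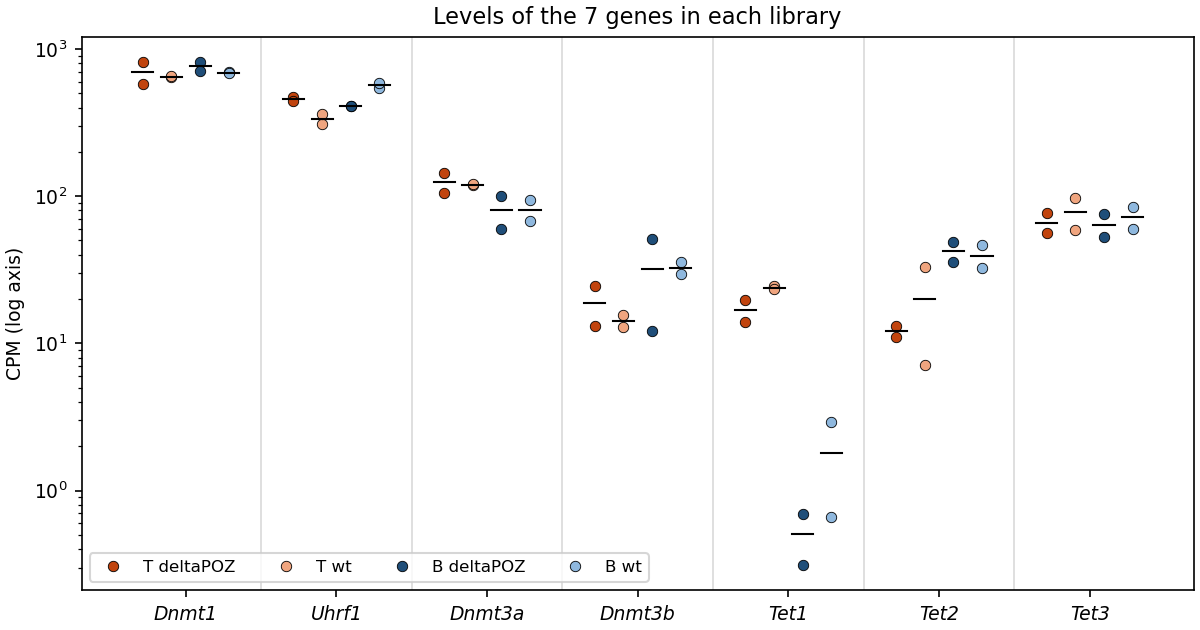
Level of each of the 7 genes in the 8 libraries, in CPM on a log axis, with 1 point a library, the bar at the mean of 2 libraries, and the groups in the order T deltaPOZ, T wt, B deltaPOZ and B wt. Tet1 stands at 13.9 to 24.5 CPM in the T libraries and at 0.312 to 2.94 CPM in the B libraries, while Dnmt1 stays between 578 and 816 CPM in all 8.

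Of the 7 genes, Tet1 was the one that passed edgeR's quasi-likelihood test between the lineages, higher in T than in B tumours. In that comparison 35.3% of all tested genes passed, so 1 member of 7 is below the background. At an unadjusted p under 0.05 there were 4 members (46.6% of all genes), and 2 had T and B libraries that did not overlap (37.1% of all genes), Tet1 and Dnmt3a, both higher in T. DESeq2 called 4 members in T against B, Tet1, Uhrf1, Dnmt3a and Tet2, and limma-voom 2, Tet1 and Tet2. Over all 16456 tested genes DESeq2 called 6897 and limma-voom 5815 in this comparison.

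Between deltaPOZ and wt no member passed the edgeR test. In T tumours 0 members were called (0% of all genes) and 1 had an unadjusted p under 0.05 (2.65% of all genes), Uhrf1. In B tumours 0 members were called (0.00608% of all genes) and 2 had an unadjusted p under 0.05 (12.1% of all genes), Uhrf1 and Tet1. Libraries did not overlap for 2 members in T (32.4% of all genes), Uhrf1 and Tet1, and for 2 in B (38.9% of all genes), Uhrf1 and Dnmt1. In the mean of both lineages 0 members were called and 0 had an unadjusted p under 0.05, where 0% and 8.9% of all genes did. For the difference between the lineages 0 members were called (0% of all genes) and 1, Uhrf1, had an unadjusted p under 0.05 (6.26% of all genes). DESeq2 called 0 members in T, in B and in the mean and 1 for the difference, Uhrf1, and limma-voom called 0 in all 4. Over all 16456 tested genes DESeq2 called 51 in T, 682 in B, 318 in the mean and 225 for the difference. The median log2 fold change of the 7 members was 0.05 in T and -0.03 in B, beside 0 in T and -0.01 in B over all genes.

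**Figure D2:**
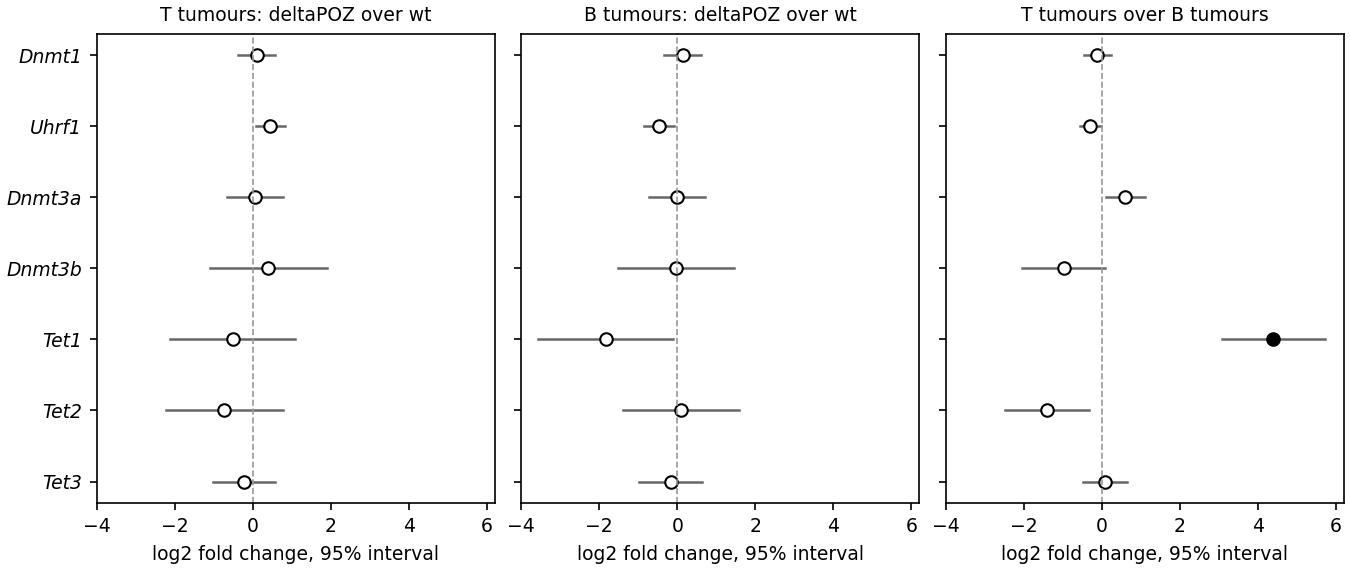
Log2 fold change of the 7 genes with its 95% interval from edgeR, for deltaPOZ over wt in T tumours (left), deltaPOZ over wt in B tumours (middle) and T over B tumours (right), with filled points for an adjusted p under 0.05. The filled point is Tet1 in T over B, at 4.39, and Uhrf1 lies above 0 in the left panel and below 0 in the middle one.

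Dnmt1, the maintenance methyltransferase (ENSMUSG00000004099, GRCm38 chr9:20907209-20959888, minus strand), was called in no comparison by edgeR. It stood at 816 and 578 CPM in T deltaPOZ, 643 and 656 CPM in T wt, 811 and 714 CPM in B deltaPOZ, and 701 and 682 CPM in B wt. Both B deltaPOZ libraries lay above both B wt libraries, while the T deltaPOZ libraries lay on either side of the T wt ones. Its deltaPOZ over wt log2 fold change was 0.10 in T (SE 0.20, edgeR adjusted p = 1) and 0.14 in B (SE 0.20, edgeR adjusted p = 0.814), and the 95% intervals reached from -0.38 to 0.58 in T and from -0.34 to 0.62 in B. Among the B libraries the highest level was 1.19 times the lowest, a spread that 92.4% of the 8588 genes with at least 10 CPM there exceeded. Among the T libraries it was 1.41 times the lowest, which 47.9% of 8910 genes exceeded, and Dnmt3a spread less there, at 1.37 times.

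Uhrf1 (ENSMUSG00000001228, GRCm38 chr17:56303321-56323486, plus strand), whose protein recognises hemimethylated CpG, lay on opposite sides of wt in the lineages, without a call by edgeR in either. Its level was 474 and 443 CPM in T deltaPOZ and 310 and 362 CPM in T wt, and 409 and 410 CPM in B deltaPOZ against 542 and 591 CPM in B wt. Both T deltaPOZ libraries were above both T wt libraries, and both B deltaPOZ libraries were below both B wt libraries. This arrangement was met by 378 of the 16456 tested genes (2.3%), and the mirrored one by 386 (2.35%). On the log2 scale the fold change was 0.45 in T (SE 0.16, 95% interval 0.07 to 0.82, edgeR adjusted p = 1) and -0.47 in B (SE 0.16, 95% interval -0.84 to -0.09, edgeR adjusted p = 0.349). Their difference was 0.92 (SE 0.22, 95% interval 0.38 to 1.45), with an edgeR adjusted p of 0.616 and a DESeq2 adjusted p of 0.0314. Without each library in turn the difference lay between 0.80 and 1.03, and without B wt 2, T wt 1 and T deltaPOZ 2 together it was 0.77 (edgeR adjusted p = 1). The fold changes of B lineage markers had the same signs, with positive fold changes for 8 of 8 in T (median 1.09) and negative ones for 8 of 8 in B (median -0.57), and 0 called by edgeR in either. Their sum was 71.7 and 102 CPM in T deltaPOZ against 78.4 and 19.6 CPM in T wt, and 1883 and 1873 CPM in B deltaPOZ against 3191 and 2445 CPM in B wt, and none was at 0. The T deltaPOZ and T wt sums overlapped. Markers of stroma and endothelium were likewise positive for 6 of 6 in T and negative for 6 of 6 in B. Their sum was 99.7 and 156 CPM in T deltaPOZ against 117 and 113 CPM in T wt, with overlap. In B it was 102 and 129 CPM in B deltaPOZ against 191 and 187 CPM in B wt. Of this list Pecam1 alone averaged 108 CPM in T tumours and 121 CPM in B tumours. Erythroid markers had the opposite signs, negative for 9 of 9 in T (median -0.42) and positive for 9 of 9 in B (median 3.96, 6 at an unadjusted p under 0.05). Their sum was 7869 and 12030 CPM in T deltaPOZ against 4497 and 21660 CPM in T wt, and 1141 and 2138 CPM in B deltaPOZ against 716 and 1239 CPM in B wt, where 1 of the 9 was at 0 in B wt 1. Myeloid markers were positive for 5 of 9 in T (median 0.45) and negative for 8 of 9 in B (median -2.44). T lineage markers were negative for 8 of 9 in T (median -0.34) and for 5 of 9 in B (median -0.01), with 0 called by edgeR. In T they summed to 2375 and 2879 CPM in T deltaPOZ against 3624 and 4260 CPM in T wt, without overlap. The part of any of these cell types in the Uhrf1 level was not tested. Between the lineages Uhrf1 differed by -0.30 for T over B (SE 0.11, edgeR adjusted p = 0.0804; DESeq2 adjusted p = 0.0487), with overlapping libraries. Per length, Uhrf1 stood at 1.005 and 1.33 times Dnmt1 in T deltaPOZ, 0.835 and 0.956 times in T wt, 0.874 and 0.996 times in B deltaPOZ, and 1.34 and 1.503 times in B wt.

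Transcription of Dnmt1 and Uhrf1 is known to follow the cell cycle through E2F factors, which act at the entry into S phase. A search of both strands for the E2F letters TTTCCCGC, TTTGGCGC, TTTCGCGC and TTTGCCGC is therefore shown in the promoter windows that hold one. Windows ran from 250 bases before to 50 bases after an annotated RefSeq start (GRCm38.p6), of which the 7 genes have 12. The E2F letters were found in 2 of these 12 windows, 1 of Dnmt1 and 1 of Uhrf1, and in 744 of all 32851 windows (2.26%). Both lie within the gene spans given above, not at their outer ends, and are printed 5' to 3' on the gene's strand, with the E2F letters in capitals.
Dnmt1, chr9:20952574-20952873, minus strand: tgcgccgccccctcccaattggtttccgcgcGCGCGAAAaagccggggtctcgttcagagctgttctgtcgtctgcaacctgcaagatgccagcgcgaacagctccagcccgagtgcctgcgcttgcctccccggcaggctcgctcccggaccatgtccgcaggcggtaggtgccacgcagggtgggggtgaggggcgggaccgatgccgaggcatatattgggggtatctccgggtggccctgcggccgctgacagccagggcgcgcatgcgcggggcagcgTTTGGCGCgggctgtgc
Uhrf1, chr17:56304063-56304362, plus strand: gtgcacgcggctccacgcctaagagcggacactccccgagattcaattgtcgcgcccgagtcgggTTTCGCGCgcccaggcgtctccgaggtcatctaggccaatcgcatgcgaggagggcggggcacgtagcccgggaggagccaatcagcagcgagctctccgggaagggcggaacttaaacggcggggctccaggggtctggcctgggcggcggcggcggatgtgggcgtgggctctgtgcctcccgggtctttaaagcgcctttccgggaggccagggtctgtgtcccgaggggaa
In the Dnmt1 window the letters lie at bases 32 to 39, read on the opposite strand, and at bases 284 to 291, and in the Uhrf1 window at bases 66 to 73. Each window also holds 33 CpG, more than 91.4% of all windows, where the median is 7. The letters ATCGGTAAT, described for binding by Miz1, were in 0 of the 12 windows and in 0.0213% of all windows. The E-box letters CACGTG, bound by Myc, were in 1 of the 12, a window of Dnmt3a, and in 7.15% of all windows. Such matches describe the letters of these windows and show no binding.

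The levels of 21 S phase genes were set beside Uhrf1. In T tumours all 21 had positive fold changes, with a median log2 fold change of 0.28, and 0 were called by edgeR, DESeq2 or limma-voom (1 at an unadjusted p under 0.05). In B tumours 8 were positive and 13 negative, with a median of -0.07, and 0 were called by edgeR or limma-voom (5 at an unadjusted p under 0.05) and 1, Gins2, by DESeq2. Gins2, a subunit of the replicative helicase, had 27.2 and 26.2 CPM in T deltaPOZ and 19.3 CPM in both T wt libraries, and 24.4 and 20.8 CPM in B deltaPOZ against 44.5 and 43.5 CPM in B wt. Like Uhrf1 it was above wt in T and below wt in B in every library, with a difference of 1.43 between the log2 fold changes (SE 0.28, edgeR adjusted p = 0.444; called by DESeq2). Over the list, 20 of the 21 differences were positive, with a median of 0.34 against 0.02 over all genes. The ribonucleotide reductase subunit gene Rrm2 averaged 305 ± 58.7 CPM in T deltaPOZ and 260 ± 95.7 CPM in T wt, and 154 ± 21.7 CPM in B deltaPOZ and 292 ± 2.55 CPM in B wt (SD, n = 2 each), with a difference of 1.15 (SE 0.40, edgeR adjusted p = 0.731). As a share of the summed CPM of the S phase genes, Uhrf1 came to 8.32 and 7.93% in T deltaPOZ, 7.35 and 7.06% in T wt, 6.80 and 7.92% in B deltaPOZ, and 9.12 and 10.2% in B wt. As shares, the T deltaPOZ libraries were above the T wt ones and the B deltaPOZ libraries below the B wt ones. The S phase sum itself was 5695 and 5583 CPM in T deltaPOZ against 4219 and 5129 CPM in T wt, and 6014 and 5177 CPM in B deltaPOZ against 5940 and 5821 CPM in B wt. It was higher in both T deltaPOZ libraries than in both T wt libraries, and its part in the Uhrf1 level was not tested. Between the lineages 5 of the 21 S phase genes were called lower in T tumours by edgeR and 0 higher. That is a smaller share than the 35.3% of all tested genes. These calls were lost in the fit of lower power without B wt 2, T wt 1 and T deltaPOZ 2. Dnmt1 did not share the arrangement, with a difference of -0.04 between its log2 fold changes (SE 0.285, 95% interval -0.71 to 0.64, edgeR adjusted p = 1).

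**Figure D3:**
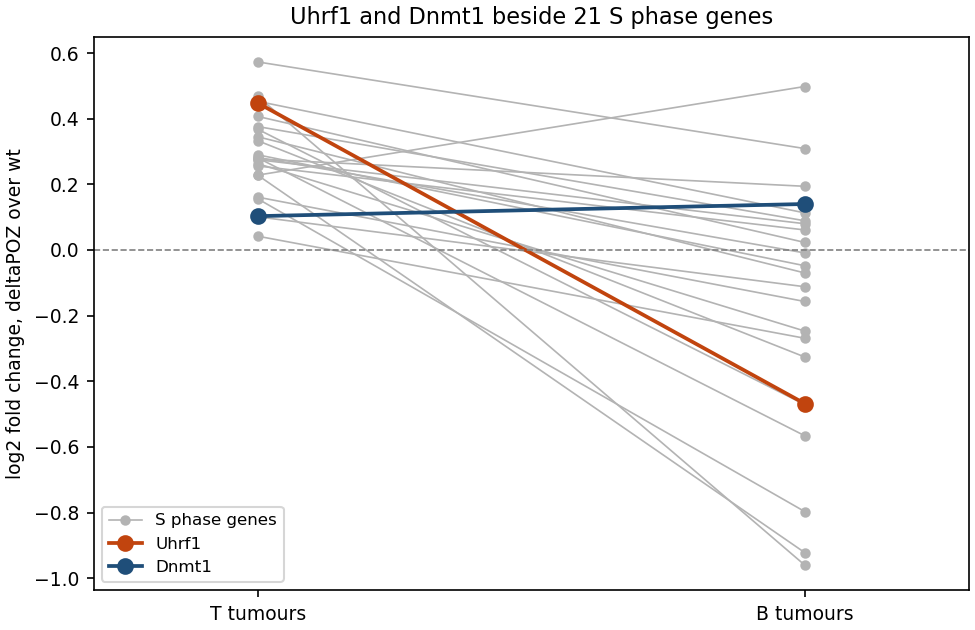
Log2 fold change of deltaPOZ over wt in T tumours (left) and in B tumours (right), with a line for each of 21 S phase genes (grey), Uhrf1 (red) and Dnmt1 (blue). Uhrf1 goes with the falling lines, at 0.45 in T and -0.47 in B, while Dnmt1 stays at 0.10 in T and 0.14 in B.

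Dnmt3a, a de novo methyltransferase (ENSMUSG00000020661, GRCm38 chr12:3806007-3914443, plus strand), differed between deltaPOZ and wt tumours by less than its spread. It stood at 144 and 105 CPM in T deltaPOZ, 118 and 122 CPM in T wt, 60.1 and 99.8 CPM in B deltaPOZ, and 67.7 and 93.8 CPM in B wt. The wt values lay within the range of the deltaPOZ values in both lineages, and every T library lay above every B library. The log2 fold change of deltaPOZ over wt was 0.05 in T (SE 0.30, 95% interval -0.66 to 0.77, edgeR adjusted p = 1) and -0.01 in B (SE 0.30, 95% interval -0.73 to 0.70, edgeR adjusted p = 1). That of T over B was 0.60 (SE 0.21, 95% interval 0.10 to 1.11, edgeR adjusted p = 0.0665). This passed by DESeq2 (adjusted p = 0.0430) and, by edgeR, without B deltaPOZ 2 (0.81, adjusted p = 0.0329). Chromosome 12 as a whole was higher in B wt 1 than in the rest of the B tumours, by a median of 0.61 on the log2 scale over its expressed genes, while the difference for Dnmt3a was -0.29. The antisense gene Dnmt3aos, which overlaps Dnmt3a, had at most 5 counts in any library.

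Dnmt3b, the other de novo methyltransferase (ENSMUSG00000027478, GRCm38 chr2:153649450-153687730, plus strand), differed more between the B deltaPOZ libraries than between the groups. It stood at 24.5 and 13.1 CPM in T deltaPOZ, 15.5 and 12.9 CPM in T wt, 51.5 and 12.2 CPM in B deltaPOZ, and 35.5 and 29.7 CPM in B wt. B deltaPOZ held both the highest and the lowest of all 8 values, so its mean lay beside that of B wt. The log2 fold change was 0.40 in T (SE 0.63, edgeR adjusted p = 1) and -0.03 in B (SE 0.63, edgeR adjusted p = 1), with a 95% interval in B from -1.52 to 1.46. In B it was 0.66 without B deltaPOZ 2 and -1.36 without B deltaPOZ 1. T over B was -0.98 (SE 0.45, edgeR adjusted p = 0.134), and -1.33 with an adjusted p of 0.0179 without B deltaPOZ 2. Per exon length, Dnmt3a stood at 1.803 to 2.89 times Dnmt3b in T tumours, and at 0.358, 2.51, 0.585 and 0.969 times in B deltaPOZ 1, B deltaPOZ 2, B wt 1 and B wt 2. With exon lengths Dnmt3a exceeded Dnmt3b in 1 B library, B deltaPOZ 2, and with the longest transcript's length also in B wt 2, at 9.69 RPKM for Dnmt3a and 6.88 RPKM for Dnmt3b.

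The low Dnmt3b of B deltaPOZ 2 lay in a stretch of chromosome 2 that was low as a whole in that library. Within 10 Mb of Dnmt3b, 103 other genes were expressed above 10 CPM, and in B deltaPOZ 2 the median of their log2 differences from the rest of the B tumours was -0.97, with 102 of them lower and 94 lowest of the 4. Dnmt3b itself differed by -1.63 there. In the other 3 B libraries the same genes lay at 0.27, 0.44 and 0.31, each against a mean that includes B deltaPOZ 2. These positive values follow in part from its low values and are no separate observation. Windows of 5 and 20 Mb, added after these values were seen, gave -0.98 over 72 genes and -0.88 over 156 genes. Between 20 and 40 Mb before Dnmt3b the genes of B deltaPOZ 2 lay at 0.59 and 0.56 in the bins of 10 Mb, and all expressed genes of the chromosome at -0.07. The number of DNA copies was not measured, and what part the stretch has in the Dnmt3b level was not tested. In the T libraries the neighbours lay between -0.07 and 0.08.

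**Figure D4:**
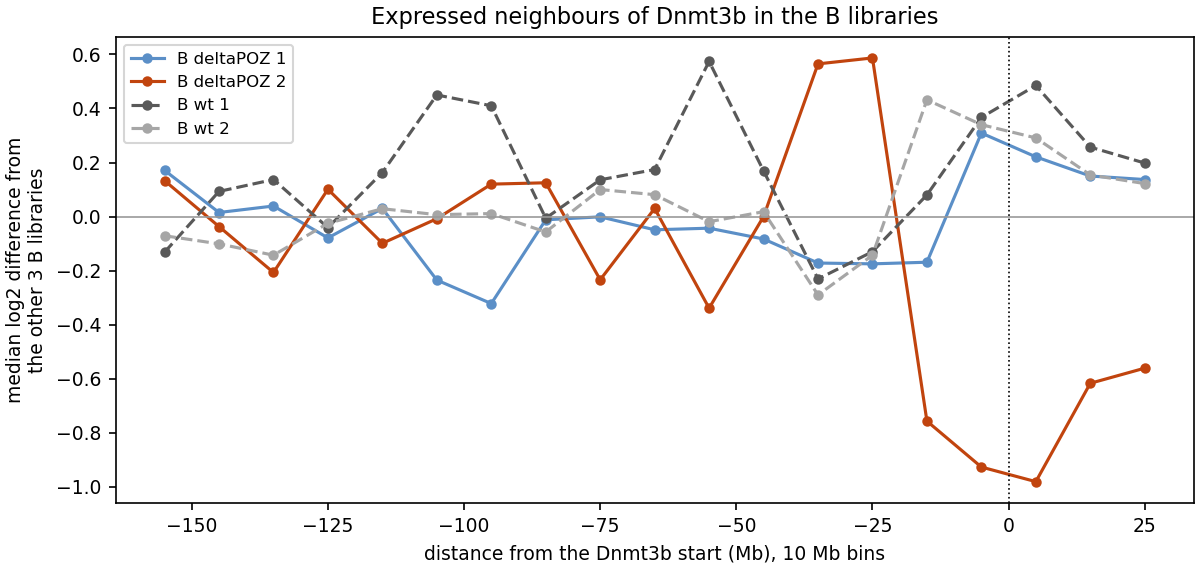
Median log2 difference of expressed chromosome 2 genes in each B library from the other 3 B libraries, in bins of 10 Mb by distance from the start of Dnmt3b (dotted line). B deltaPOZ 2 (red) lies near 0.6 between 40 and 20 Mb before the gene and at -0.93 and -0.98 in the bins on either side of it. There the other 3 libraries lie above 0, each against a mean that includes B deltaPOZ 2.

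Tet1, a dioxygenase best known from embryonic stem cells and germ cells (ENSMUSG00000047146, GRCm38 chr10:62804570-62908996, minus strand), was 20.97 times higher in T than in B tumours. It stood at 13.9 and 19.6 CPM in T deltaPOZ, 24.5 and 23.3 CPM in T wt, 0.312 and 0.698 CPM in B deltaPOZ, and 0.664 and 2.94 CPM in B wt. Every T library was far above every B library, and the B values rest on 16, 35, 35 and 132 counts. On the log2 scale T over B was 4.39 (SE 0.555, 95% interval 3.07 to 5.71, edgeR adjusted p = 0.00223). Without each library in turn it lay between 4.03 and 5.09 (edgeR adjusted p = 0.0027 to 0.01), and without B wt 2, T wt 1 and T deltaPOZ 2 it was 4.92 (adjusted p = 0.0279). Summed erythroid markers ran from 4497 to 21660 CPM in T tumours and from 716 to 2138 CPM in B tumours. Summed NK markers ran from 141 to 384 CPM in T tumours and from 1.85 to 31.4 CPM in B tumours. Called higher in T by edgeR were 8 of 9 erythroid and 2 of 4 NK markers, where 35.3% of all tested genes were called in either direction. The NK markers called were Gzma and Klrb1c. The other 2, Ncr1 (log2 fold change -1.69) and Klrd1 (-0.92), were lower in T without a call, so the NK markers did not move together. The part of erythroid or NK cells in the Tet1 level was not tested. Tet1 lay above 31.9 to 38.0% of tested genes per length in T tumours and above 8.3 to 20.3% in B tumours.

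Within the lineages both T deltaPOZ libraries were below both T wt libraries for Tet1, and the B libraries overlapped. The log2 fold change was -0.52 in T (SE 0.68, edgeR adjusted p = 1), -1.83 in B (SE 0.73, edgeR adjusted p = 0.397) and -1.17 in the mean of both (SE 0.50, edgeR adjusted p = 0.564). The value in B rested on B wt 2 and came to -0.34 without it. B wt 2 also held the highest summed markers of myeloid cells (1259 CPM) and of NK cells among the B libraries (31.4 CPM against 1.85 to 7.78 CPM), and their part in its Tet1 level was not tested. The 1 RefSeq promoter window of Tet1 is printed with its 17 CpG in capitals, since Tet1 is the member with the largest change between lineages. This RefSeq start lies inside the gene span given above, which begins farther upstream, and the number of CpG exceeds that of 68.6% of all windows.
Tet1, chr10:62887275-62887574, minus strand: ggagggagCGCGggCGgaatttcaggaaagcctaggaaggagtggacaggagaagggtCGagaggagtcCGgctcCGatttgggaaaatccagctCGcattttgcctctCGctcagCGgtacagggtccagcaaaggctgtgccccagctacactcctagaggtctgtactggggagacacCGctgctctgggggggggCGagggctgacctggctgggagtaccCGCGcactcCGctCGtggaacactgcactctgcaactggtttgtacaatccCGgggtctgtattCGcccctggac
Whether these CpG are methylated in the tumours was not measured.

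Tet2 (ENSMUSG00000040943, GRCm38 chr3:133463679-133545139, minus strand), the Tet gene most often mutated in human blood cancers, ran the other way between the lineages, with lower values in T tumours that did not pass by edgeR. It stood at 13.1 and 11.02 CPM in T deltaPOZ, 32.8 and 7.12 CPM in T wt, 48.7 and 35.6 CPM in B deltaPOZ, and 46.2 and 32.7 CPM in B wt. T wt 1 stood at the level of the B libraries, and the other 3 T libraries were below all of them. T over B it came to -1.40 on the log2 scale (SE 0.45, 95% interval -2.47 to -0.32, edgeR adjusted p = 0.0513). The test was passed without T wt 1 (-2.14, adjusted p = 0.00496), without T wt 2 (-1.04, adjusted p = 0.0300), by DESeq2 (adjusted p = 0.00707) and by limma-voom (adjusted p = 0.0294). Between deltaPOZ and wt it was -0.73 in T (SE 0.63, edgeR adjusted p = 1), which turned to 0.75 without T wt 1, and 0.10 in B (SE 0.63, edgeR adjusted p = 0.976), which turned to -0.10 without B deltaPOZ 1 and to -0.07 without B wt 2. The 4 T values spanned a factor of 4.61, and 2.9% of the 8910 genes with at least 10 CPM in T tumours spanned more. T wt 1 had the highest myeloid sum of the T libraries and, with Xist at 1246 CPM, also stood apart in sex-linked RNA, and the part of either in its Tet2 level was not tested. Set against the other libraries of its lineage, chromosome 3 had a median of 0.53 (log2) over its expressed genes in B deltaPOZ 1, where Tet2 was at 0.37, and of -0.12 in T wt 1, where Tet2 was at 1.70.

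Tet3 (ENSMUSG00000034832, GRCm38 chr6:83362373-83459084, minus strand), the Tet enzyme known from the oocyte and zygote, was the most abundant Tet RNA per exon length in every library, but with the longest transcript's length Tet2 exceeded it in B deltaPOZ 1, at 5.31 RPKM for Tet2 and 4.83 RPKM for Tet3. It stood at 76.4 and 55.8 CPM in T deltaPOZ, 96.6 and 58.5 CPM in T wt, 52.7 and 75.7 CPM in B deltaPOZ, and 59.9 and 84.5 CPM in B wt. All 4 groups overlapped. The log2 fold change was -0.23 in T (SE 0.34, edgeR adjusted p = 1), -0.17 in B (SE 0.34, edgeR adjusted p = 0.874) and 0.07 in T over B (SE 0.24, 95% interval -0.49 to 0.64, edgeR adjusted p = 0.835). The sign turned in T without T wt 1 (0.17), in B without B deltaPOZ 1 (0.12) or B wt 2 (0.16), and in T over B without B deltaPOZ 1, B wt 1, T deltaPOZ 1 or T wt 1 (-0.13 to -0.04).

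Added per exon length, the Tet genes gave totals that overlapped between the lineages, in another mix. Their sum was 6.25 and 5.26 RPKM in T deltaPOZ, 9.32 and 5.43 RPKM in T wt, 6.07 and 6.68 RPKM in B deltaPOZ, and 6.37 and 7.19 RPKM in B wt. Tet1 made up 14.4 to 27.8% of the sum in T tumours and 0.333 to 2.64% in B tumours, and these ranges did not overlap. Tet2 made up 7.77 to 20.9% in T tumours and 27.0 to 47.6% in B tumours, and these did not overlap either. Tet3 made up 62.1 to 73.3% in T tumours and 52.0 to 70.4% in B tumours.

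**Figure D5:**
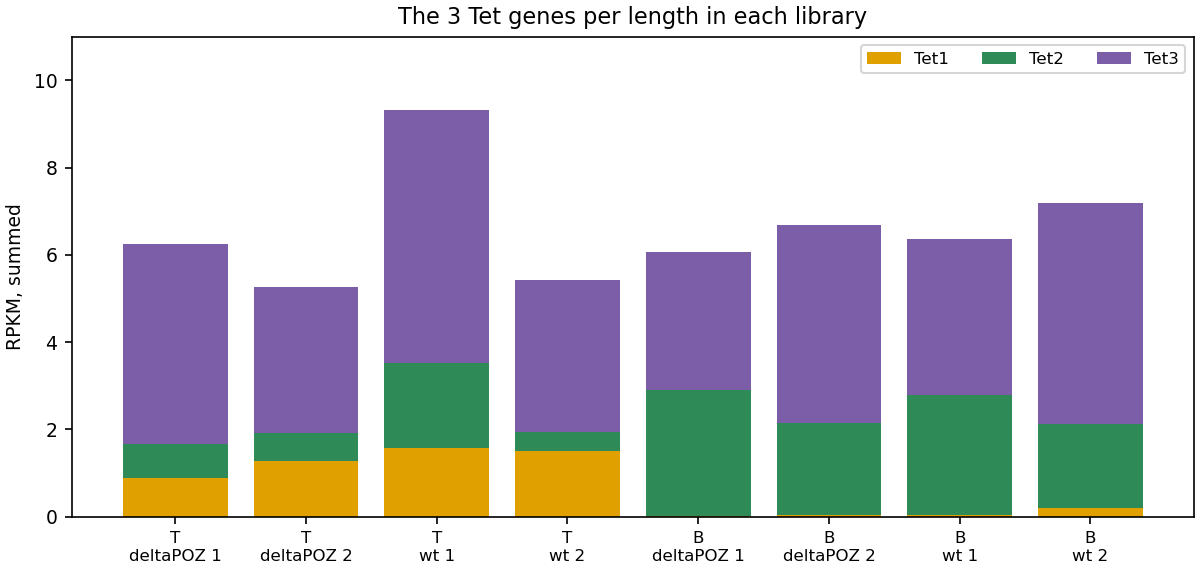
Summed RPKM of Tet1 (yellow), Tet2 (green) and Tet3 (purple) in each library, from T deltaPOZ on the left to B wt on the right. Scaled to the length of all exons, Tet3 is the largest part of every bar (with the longest transcript's length Tet2 is larger in B deltaPOZ 1), the part of Tet1 is visible in the T bars and close to 0 in the B bars, and the bar of T wt 1 is the tallest at 9.32 RPKM.

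The 7 lists of pathway genes described here hold 76 tested entries, with Pcna counted in both the cofactor and the S phase list. Of these entries edgeR called 27 in T against B (35.5%), close to the 35.3% of all tested genes. These calls therefore say nothing particular of the lists. Of 10 tested cofactors and partners of DNMT1 and UHRF1, 2 were called in T against B by edgeR, both lower, and 0 higher, a smaller share than over all genes. Cdca7l, whose paralog Cdca7 activates HELLS, averaged 59.1 ± 16.6 CPM in T tumours and 211 ± 38.1 CPM in B tumours (log2 fold change -1.85, SE 0.21, adjusted p = 0.00168 by edgeR), and Hells, the remodeller that opens nucleosomes for methylation, 214 ± 64.3 CPM in T tumours and 379 ± 64.0 CPM in B tumours (SD, n = 4 each; -0.87, SE 0.17, adjusted p = 0.00866). In deltaPOZ against wt 0 of these 10 were called by edgeR. Hells and Cdca7 (2 genes) in T and Hdac1 (1 gene) in B had an unadjusted p under 0.05. Hells averaged 268 ± 17.0 CPM in T deltaPOZ and 161 ± 25.9 CPM in T wt (SD, n = 2 each; log2 fold change 0.74, SE 0.23, edgeR adjusted p = 1). Cdca7 had positive values in both lineages, 0.47 in T (SE 0.16, edgeR adjusted p = 1) and 0.33 in B (SE 0.16, edgeR adjusted p = 0.450), and for the mean of both DESeq2 called it. Of these calls in T against B, that of Hells was lost in the fit of lower power without B wt 2, T wt 1 and T deltaPOZ 2.

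Of 9 tested genes of the methyl donor cycle, 6 were called lower in T against B and 0 higher by edgeR, where 35.3% of all genes were called in either direction, with a median log2 fold change of -0.64 against 0.05 over all genes. The salvage enzyme gene Mtap averaged 61.8 ± 7.41 CPM in T tumours and 146 ± 46.7 CPM in B tumours (-1.20, SE 0.15, edgeR adjusted p = 0.00232). The serine hydroxymethyltransferase genes Shmt1 (-1.31, SE 0.24, adjusted p = 0.00802) and Shmt2 (-0.92, SE 0.19, adjusted p = 0.0122) fell too, as did Ahcy, which clears S-adenosylhomocysteine (-0.74, SE 0.19, edgeR adjusted p = 0.0240). Without 1 library 3 to 5 of the 6 remained, always with Mtap, Shmt1 and Shmt2. The calls were lost without the 3 libraries B wt 2, T wt 1 and T deltaPOZ 2 together, a fit of generally lower power.

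Of 9 tested readers of methylated DNA, 3 were called higher and 1 lower in T against B by edgeR, a share near the 35.3% of all genes. Mbd2, which binds methylated CpG, averaged 189 ± 25.5 CPM in T tumours and 118 ± 20.2 CPM in B tumours (log2 fold change 0.68, SE 0.16, adjusted p = 0.0165 by edgeR), and Zbtb38 (1.65, SE 0.41, adjusted p = 0.0218) rose too. Uhrf2, the paralog of Uhrf1, averaged 102 ± 12.5 CPM in T tumours and 234 ± 60.7 CPM in B tumours (-1.17, SE 0.19, edgeR adjusted p = 0.00477). Zbtb38 lost its call in 5 of the 8 fits without 1 library and Mbd2 in 2, while Uhrf2 was called in all 8. Of 14 base excision and related genes, 3 were called higher and 3 lower, again near that share. Parp1, which binds DNA breaks, averaged 321 ± 60.5 CPM in T tumours and 814 ± 110 CPM in B tumours (-1.34, SE 0.15, edgeR adjusted p = 0.00158), and its partner Xrcc1 fell as well (-0.98, SE 0.18, adjusted p = 0.00786). Gadd45g averaged 11.5 ± 8.30 CPM in T tumours and 0.765 ± 0.485 CPM in B tumours (3.91, SE 0.59, edgeR adjusted p = 0.00399). The glycosylase gene Neil2 had 25 to 35 counts in T libraries and 1 to 5 counts in B libraries, so it passed the filter on low counts only through the T libraries and its call supports nothing; it was not tested with a filter of 5 CPM. The reader calls, and those of Xrcc1 and Neil2, were lost in the fit of lower power without B wt 2, T wt 1 and T deltaPOZ 2.

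Of 10 tested genes of 2-oxoglutarate supply and TET partners, 1 was called higher and 1 lower in T against B by edgeR. That is a smaller share than the 35.3% of all tested genes. The call of Wt1, a transcription factor that binds TET2, rests on 3 to 46 counts in T libraries and 0 to 2 counts in B libraries, which are below the 3 counts that a 0 allows. Wt1 passed the filter on low counts only through the T libraries, so its call supports nothing, and it was not tested with a filter of 5 CPM. In B tumours Cxxc5, a zinc finger gene of a family linked to TET proteins, averaged 20.6 ± 6.498 CPM in B deltaPOZ and 65.0 ± 19.1 CPM in B wt (-1.66, SE 0.30, edgeR adjusted p = 0.169), and in T tumours 48.7 ± 2.19 CPM in T deltaPOZ and 33.1 ± 1.45 CPM in T wt (0.56, SE 0.29, edgeR adjusted p = 1). The difference of these fold changes was 2.21 (SE 0.42, edgeR adjusted p = 0.425), which DESeq2 called. The calls in T against B were lost in the fit of lower power without B wt 2, T wt 1 and T deltaPOZ 2. That of Wt1 was also lost in 5 of the 8 fits without 1 library.

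Germline genes that DNA methylation keeps silent in body cells were mostly at or near 0. Of 16 listed, 13 did not pass the filter on low counts, with a highest value of 0.232 CPM, for Slc25a31 in T deltaPOZ 2, and 3 of the 13 had no count in any library. Of the 3 tested genes, 2 were called higher in T tumours by edgeR, where 35.3% of all tested genes were called in either direction. Brdt, a testis bromodomain gene, averaged 6.5 ± 3.68 CPM in T tumours and 0.531 ± 0.675 CPM in B tumours (log2 fold change 4.12, SE 0.78, adjusted p = 0.00851 by edgeR), and the germ cell helicase gene Ddx4 1.44 ± 0.579 CPM in T tumours and 0.272 ± 0.236 CPM in B tumours (SD, n = 4 each; 2.94, SE 0.49, edgeR adjusted p = 0.00542). These calls were lost in the fit of lower power without B wt 2, T wt 1 and T deltaPOZ 2. Over the 7 lists edgeR called 0 of the 76 tested entries between deltaPOZ and wt. At an unadjusted p under 0.05 there were 5 in T (6.6%, against 2.65% of all genes) and 17 in B (22.4%, against 12.1% of all genes). DESeq2 called 0 of the 76 in T and 4 in B, among them Gadd45b, which was higher, and Cxxc5 and Gins2, which were lower, and limma-voom called 0 in both. Over all 16456 tested genes DESeq2 called 51 in T and 682 in B.

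The genes most like each member in log2 CPM over the 8 libraries, among 9685 protein-coding genes, were for Dnmt1 Rhobtb2 (r = 0.954), for Uhrf1 Lrr1 (r = 0.943), for Dnmt3a Pfn1 (r = 0.982), for Dnmt3b Trmt6 (r = 0.966), for Tet1 Lrrc8c (r = 0.990), for Tet2 Zfp566 (r = 0.967) and for Tet3 Anxa1 (r = 0.926). For Uhrf1 the second was Gins2 (r = 0.927), which is also in the S phase list. With 8 libraries in 2 lineages, which also differ in run, such values are a description of these libraries.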

How the data were processed

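RNA of 8 mouse spleen tumours was prepared with the TruSeq Stranded mRNA kit, per the labels' protocols. The authors deposited raw counts per gene for each library. The submitters' processing notes name TopHat2 2.0.10, SAMtools, HTSeq, DESeq and the build mm10. Neither the strand setting nor the annotation release used by HTSeq is given in the sources used here. Unassigned reads (30.4 to 39.3% without a feature, 0.471 to 0.554% ambiguous) stayed out of library sizes.

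Of 41214 genes, 16456 passed filterByExpr and were fitted with edgeR 4.0.16 (R 4.3.3) by the quasi-likelihood test with TMM normalization, 1 coefficient for each of the 4 groups over all 8 libraries (4 residual degrees of freedom), and Benjamini-Hochberg adjustment over all tested genes; a call is an adjusted p under 0.05. CPM use TMM library sizes, and RPKM divide them by the exon union of GENCODE M21. Groups came from the labels, and the mice are separate animals. Fits were also run on simulated counts with less spread than these data (common dispersion 0.202), so that run does not show how well changes are found here. Alternatives were DESeq2 1.42.0, limma-voom (limma 3.58.1), other filters and size factors, each lineage alone, and libraries left out. A change in chromosome neighbours is the median log2 CPM of a library minus the mean of the others of its lineage, over genes above 10 CPM.

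The 7 members and all lists were chosen with earlier results of these data known. All members are named; of each list, those lowest in p in each comparison could be named. Values of 5 or fewer genes singled out beyond this were chosen after they were seen. Results for some genes of these lists are not reported here.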

Additional observations from a re-analysis of the deposited data

Results flagged for a closer look

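The deltaPOZ effect on Uhrf1 in T tumours minus that in B tumours was 0.92 on the log2 scale. It is listed because both T deltaPOZ libraries lay above both T wt libraries while both B deltaPOZ libraries lay below both B wt libraries. In edgeR the difference had an unadjusted p of 0.00488 and an adjusted p of 0.616, and in DESeq2 an adjusted p of 0.0314. For this difference DESeq2 called 225 of all 16456 tested genes. The arrangement was met by 2.3% of all tested genes.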

How the results depend on the processing

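Of 224 member fold changes recomputed with other tools, filters or scaling, or without B wt 2, T wt 1 and T deltaPOZ 2, 200 kept direction and side of the threshold, 6 passed it newly, 0 lost it and 18 changed sign. No member that edgeR called lost its call, and every sign change was of a fold change that edgeR had not called with all 8 libraries. For T against B, DESeq2 called 4 members, limma-voom 2, the fit without the 3 libraries 2, and fits without 1 library 1 to 3; for the difference between lineages DESeq2 called 1. Signs turned with limma-voom for the mean of Dnmt3a (-0.002) and Dnmt3b (-0.021); with a filter of 10 counts in total for Dnmt3a (0.041) and Dnmt3b (0.022) in B and Uhrf1 in the mean (0.02); and with 5 CPM in 2 libraries for Uhrf1 in the mean (0.004). Without the 3 libraries they turned in B for Dnmt3a (0.248), Tet2 (-0.135) and Tet3 (0.104), in T for Tet2 (0.851) and Tet3 (0.364), in the mean for Tet2 (0.358) and Tet3 (0.234), and in the difference for Dnmt1 (0.174), Dnmt3a (-0.026), Tet1 (-0.386), Tet2 (0.986) and Tet3 (0.26). The cause was not tested.

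Without 1 library, values in B ranged from -0.427 to 0.358 for Dnmt3a, -1.363 to 0.659 for Dnmt3b, -0.096 to 0.37 for Tet2 and -0.455 to 0.159 for Tet3. In T they ranged from -0.172 to 0.332 for Dnmt1, -0.198 to 0.267 for Dnmt3a, -0.12 to 0.787 for Dnmt3b, -1.445 to 0.753 for Tet2 and -0.544 to 0.174 for Tet3. In the mean the ranges were -0.016 to 0.236 for Dnmt1, -0.066 to 0.057 for Uhrf1, -0.187 to 0.211 for Dnmt3a, -0.475 to 0.531 for Dnmt3b, -0.675 to 0.424 for Tet2 and -0.357 to 0.001 for Tet3. In the difference they were -0.312 to 0.192 for Dnmt1, -0.294 to 0.48 for Dnmt3a, -0.256 to 1.774 for Dnmt3b, -0.175 to 2.017 for Tet1, -1.541 to 0.659 for Tet2 and -0.386 to 0.344 for Tet3. For T against B they were -0.248 to 0.005 for Dnmt1 and -0.13 to 0.229 for Tet3. Over all genes, DESeq2 called 682 in B, 51 in T, 318 in the mean, 225 in the difference and 6897 in T against B, where edgeR called 1, 0, 0, 0 and 5801 and limma-voom 6, 0, 0, 0 and 5815; without 1 library edgeR called 0 to 9 in B, 0 in T, 0 to 5 in the mean, 0 to 4 in the difference and 3621 to 4900 in T against B. No paired analysis was possible because the labels number the mice singly and the groups share no replicate numbers. With 2 libraries a group, the 95% intervals of the deltaPOZ fold changes, and for Tet1 in B tumours 16 to 132 counts, limit what can be seen.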
